A study of Mus musculus with 6 samples.

Results

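The regions described here were open, by the presence of an ATAC-seq peak, in both libraries of mouse embryonic fibroblasts (MEFs) taken after long culture and in neither library taken at passage 1. They were selected on measured values: peaks of 4 ATAC-seq libraries that overlapped or touched were merged, and a region was kept when a peak of Norm-Sen and a peak of Hyp-Imm overlapped it by 1 bp or more and no peak of Norm-Pro or Hyp-Pro did. Of 170532 merged regions 1025 met this rule, which is 0.601% of the pool. Their presence in the late libraries and absence at passage 1 is therefore how they were chosen and not a result.

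The MEFs were wild type, of strain C57BL/6J, and came from E13.5 embryos. Norm-Sen were senescent MEFs grown in 20% oxygen, Hyp-Imm were MEFs immortalized in 3% oxygen, and Norm-Pro and Hyp-Pro were passage 1 MEFs in 20% and 3% oxygen. A library of Tfcp2l1 ChIP-seq was made from senescent MEFs in 20% oxygen and another from immortalized MEFs in 3% oxygen. Each condition had 1 library, so no error between replicates could be measured, and the labels give no passage number for Norm-Sen and Hyp-Imm. In ATAC-seq the transposase Tn5 inserts adapters where DNA is not covered by nucleosomes, and a peak marks a promoter, an enhancer, an insulator or another accessible site. Mouse fibroblasts in atmospheric oxygen stop dividing after some passages and become senescent, whereas low oxygen spares them much oxidative damage and lets the culture go on. Both states change the use of enhancers, and AP-1, a dimer of Fos and Jun proteins, is known to act at many enhancers of fibroblasts.

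Of the members that overlapped no exon, 12 are printed to show the kinds of sequence among them, all from the plus strand of the RefSeq sequence of GRCm38 and named by the protein-coding gene with the nearest transcription start site (TSS). The first pair are the members with the strongest peaks, and the capitals mark a run of at least 10 CA or TG dinucleotides.
Kcnh5, chr12:74914107-74914274: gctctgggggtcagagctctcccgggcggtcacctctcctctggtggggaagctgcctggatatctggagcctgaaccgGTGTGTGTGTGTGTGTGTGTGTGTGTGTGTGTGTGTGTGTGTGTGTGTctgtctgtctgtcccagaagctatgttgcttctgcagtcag
Atf7ip, chr6:136575631-136575812: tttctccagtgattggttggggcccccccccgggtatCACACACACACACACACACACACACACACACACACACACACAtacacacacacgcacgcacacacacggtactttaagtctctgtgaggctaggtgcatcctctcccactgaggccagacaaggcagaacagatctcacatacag
The next members hold a CTCF motif, in capitals, the site of the factor that insulates domains and anchors loops.
Theg, chr10:79595331-79595512: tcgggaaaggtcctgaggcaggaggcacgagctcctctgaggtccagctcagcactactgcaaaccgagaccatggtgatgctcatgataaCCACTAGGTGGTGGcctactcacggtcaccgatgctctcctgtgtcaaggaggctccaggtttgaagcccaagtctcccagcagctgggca
Dlk1, chr12:109393901-109394100: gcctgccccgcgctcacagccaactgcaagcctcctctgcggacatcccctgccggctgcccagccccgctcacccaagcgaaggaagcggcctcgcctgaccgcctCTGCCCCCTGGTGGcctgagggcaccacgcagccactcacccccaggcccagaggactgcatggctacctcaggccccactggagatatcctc
Tm6sf1, chr7:81868171-81868315: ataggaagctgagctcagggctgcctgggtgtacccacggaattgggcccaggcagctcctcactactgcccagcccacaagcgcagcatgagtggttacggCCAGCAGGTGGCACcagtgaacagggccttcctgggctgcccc
A pair of members with the AP-1 motif TGANTCA in capitals follow.
Chd7, chr4:8954693-8954914: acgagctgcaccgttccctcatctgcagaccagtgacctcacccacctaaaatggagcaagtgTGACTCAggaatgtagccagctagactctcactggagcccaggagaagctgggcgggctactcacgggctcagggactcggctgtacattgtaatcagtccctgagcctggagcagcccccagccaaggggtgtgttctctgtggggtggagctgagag
Cd44, chr2:102825049-102825284: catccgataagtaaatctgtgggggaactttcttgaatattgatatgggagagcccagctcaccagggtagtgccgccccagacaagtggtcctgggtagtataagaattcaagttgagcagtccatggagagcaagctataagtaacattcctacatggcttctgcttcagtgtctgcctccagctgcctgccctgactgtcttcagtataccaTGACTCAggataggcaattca
Members upstream of a promoter can hold GC boxes, the motif GGGCGGG bound by Sp and Klf factors, shown in capitals on either strand.
Farp2, chr1:93511495-93511737: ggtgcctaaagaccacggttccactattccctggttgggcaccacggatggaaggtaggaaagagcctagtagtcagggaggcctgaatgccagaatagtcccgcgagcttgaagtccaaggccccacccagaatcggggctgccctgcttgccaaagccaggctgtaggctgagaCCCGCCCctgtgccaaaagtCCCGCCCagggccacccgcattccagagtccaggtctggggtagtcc
Fos, chr12:85472141-85472369: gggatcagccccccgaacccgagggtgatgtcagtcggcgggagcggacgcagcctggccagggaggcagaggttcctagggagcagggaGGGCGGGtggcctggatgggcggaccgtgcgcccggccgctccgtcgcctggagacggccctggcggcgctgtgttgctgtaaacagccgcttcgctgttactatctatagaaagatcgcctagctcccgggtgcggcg
In the member upstream of Tgfb2 the capitals mark CG dinucleotides.
Tgfb2, chr1:186706310-186706428: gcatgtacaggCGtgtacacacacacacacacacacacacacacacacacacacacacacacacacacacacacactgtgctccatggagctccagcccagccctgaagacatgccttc
In the last pair the capitals mark a match to the Tfcp2l1 motif with 2 mismatches.
Lbh, chr17:72890722-72890866: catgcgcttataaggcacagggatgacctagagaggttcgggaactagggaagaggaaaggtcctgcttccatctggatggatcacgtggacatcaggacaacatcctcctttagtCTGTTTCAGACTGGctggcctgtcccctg
Tenm4, chr7:96164298-96164532: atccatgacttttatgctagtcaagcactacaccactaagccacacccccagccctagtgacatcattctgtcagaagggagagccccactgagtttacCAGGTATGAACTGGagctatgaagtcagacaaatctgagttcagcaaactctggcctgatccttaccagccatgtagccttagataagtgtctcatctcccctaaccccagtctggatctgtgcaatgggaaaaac

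The libraries differed in depth, and the names of the deposited files contradict their labels. Norm-Sen held 61408 peaks and Hyp-Imm 37770, against 69122 in Norm-Pro and 47523 in Hyp-Pro. From the fold enrichment and p-value of each peak, the number of reads piled up at its summit and the local background could be recovered for at least 99.97% of the peaks of each library. The genome-wide background was 1.77 reads per position in Norm-Sen and 0.445 in Hyp-Imm, against 1.24 in Norm-Pro and 0.956 in Hyp-Pro. A peak at this background needed at least 8 reads at its summit in Norm-Sen and 4 in Hyp-Imm, against 6 in each passage 1 library. The file of the sample labelled Norm-Sen bears the name Hyp-Pro, the Hyp-Imm sample has a file called Norm-Sen, the Norm-Pro sample one called Hyp-Imm, and the Hyp-Pro sample one called Norm-Pro. Read by the file names, the same rule gives the 1264 regions that by the labels are found in Hyp-Imm and Norm-Pro alone. A region has only 1 combination of libraries, so by construction 0 of these are among the 1025 described here. The labels were followed throughout. Of 12 fibroblast marker genes between 4 and 8 had a promoter peak in a library, Vim, Fn1, Col1a2 and Twist1 in every library. This compares with 1 or 2 of 7 epithelial, 0 to 3 of 7 blood, 1 or 2 of 5 endothelial and 1 to 4 of 7 neural markers. Kdr, an endothelial marker, and Map2, a neural one, also had a promoter peak in every library. In Norm-Pro 4 of 7 neural markers had one, beside 6 of 12 of fibroblasts, and in Hyp-Imm 3 of 7 of blood, beside 4 of 12. Promoter peaks of these markers thus do not by themselves tell the cell type.

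The members were a small part of what the late libraries shared. Norm-Sen and Hyp-Imm had 7554 regions in common, of which 1025 (13.6%, 95% exact Clopper-Pearson interval 12.8 to 14.4) had no passage 1 peak. For the regions shared by Norm-Pro and Hyp-Pro, 2947 of 12755 (23.1%, 22.4 to 23.8) had no late peak. The share was 11.95% (11.2 to 12.7) for the libraries in 3% oxygen, 30.8% (30.0 to 31.5) for those in 20% oxygen, 15.9% (15.1 to 16.8) for Hyp-Imm with Norm-Pro and 22.8% (22.03 to 23.5) for Norm-Sen with Hyp-Pro. All 3 pairs with Hyp-Imm, the library of lowest background, had lower shares than the 3 pairs without it, and the part of depth in these shares was not tested. These intervals, like all others given here, cover counting error only. Members made up 1.70% of the regions of Norm-Sen and 2.77% of those of Hyp-Imm.

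**Figure D1:**
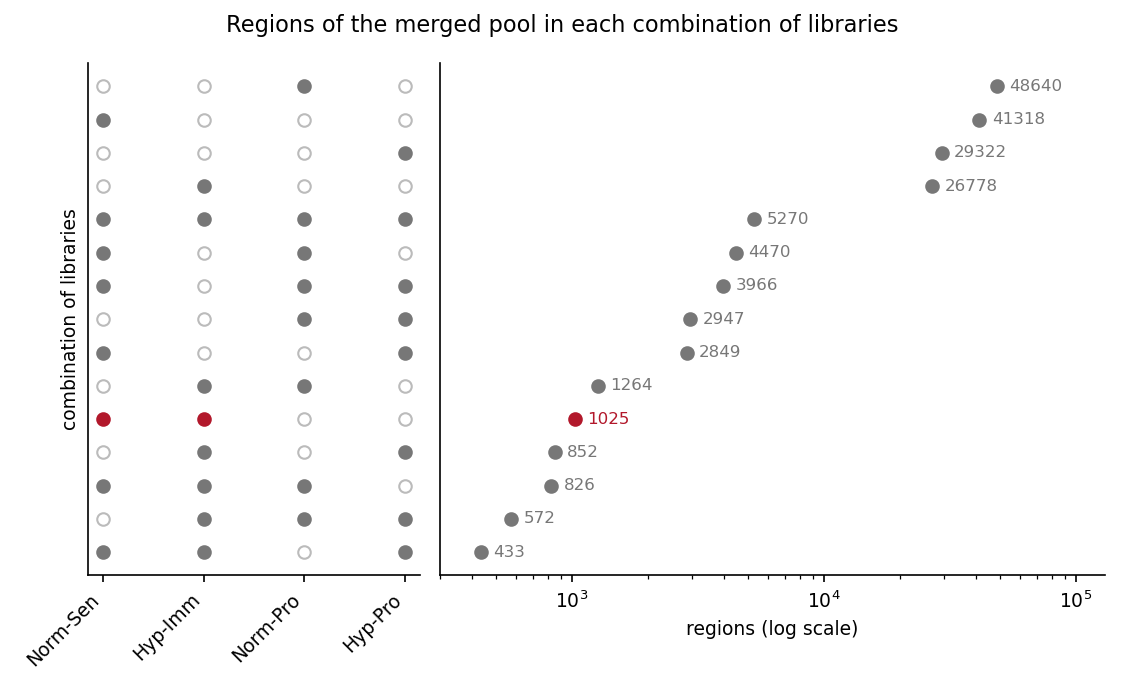
Number of regions of the merged pool, on a log axis, found in each of the 15 combinations of the 4 ATAC-seq libraries, with filled circles for the libraries that held a peak. The 1025 regions found in Norm-Sen and Hyp-Imm alone, in red, come after the 1264 of Hyp-Imm with Norm-Pro and before the 852 of Hyp-Imm with Hyp-Pro.

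The members' peaks were about as strong as the other peaks of their libraries. The −log10 q of the Norm-Sen peak had a median of 3.75 (1.74 to 10.96), against 3.72 over all peaks of that library, and that of the Hyp-Imm peak a median of 2.90 (1.44 to 12.2), against 2.91, where the authors' limit corresponds to 1.30. By −log10 q the Norm-Sen peak was the stronger one in 685 members and the Hyp-Imm peak in 340. The median fold enrichment went the other way, 4.25 in Norm-Sen and 4.84 in Hyp-Imm, against 4.29 and 4.84 over all peaks. The part of depth in these values was not tested. At the summit a member had a median of 13 reads in Norm-Sen, with 9 to 53, over a local background of 2.28, and a median of 7 reads in Hyp-Imm, with 4 to 36, over a background of 0.550. The medians over all peaks were likewise 13 and 7 reads. In Hyp-Imm 381 members (37.2%) stood at most 2 reads above the fewest that make a peak at background, as did 76 (7.41%) in Norm-Sen. Both peaks reached a −log10 q of 3 in 379 members, of 4 in 85 and of 5 in 25. The merged regions were 174 bp wide in the median, with 101 to 498.

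The late peaks of a member were close to each other but rarely at the same base. Their summits lay 47 bp apart in the median, within 20 bp in 260 members (25.4%, 22.7 to 28.1) and more than 100 bp apart in 167 (16.3%). In the 5 other sets of regions found in exactly 2 libraries the median distance was 40.5 to 45 bp, and 25.5 to 29.5% of the summits lay within 20 bp. In 6 members the peaks only touched. At the weakest edge of the rule, the member nearest to Ppic had a −log10 q of 3.84 in Norm-Sen and 1.44 in Hyp-Imm, one upstream of Fos had 3.16 and 1.44, and one nearest to Ssr1 had 1.74 and 2.83. Just outside it were 1259 regions shared by both late libraries and 1 passage 1 library. The weakest of their passage 1 peaks had a −log10 q of 1.74 at Ago4, 1.76 at Yme1l1 and 1.77 near Slco3a1, and only 9 were under 2.

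**Figure D2:**
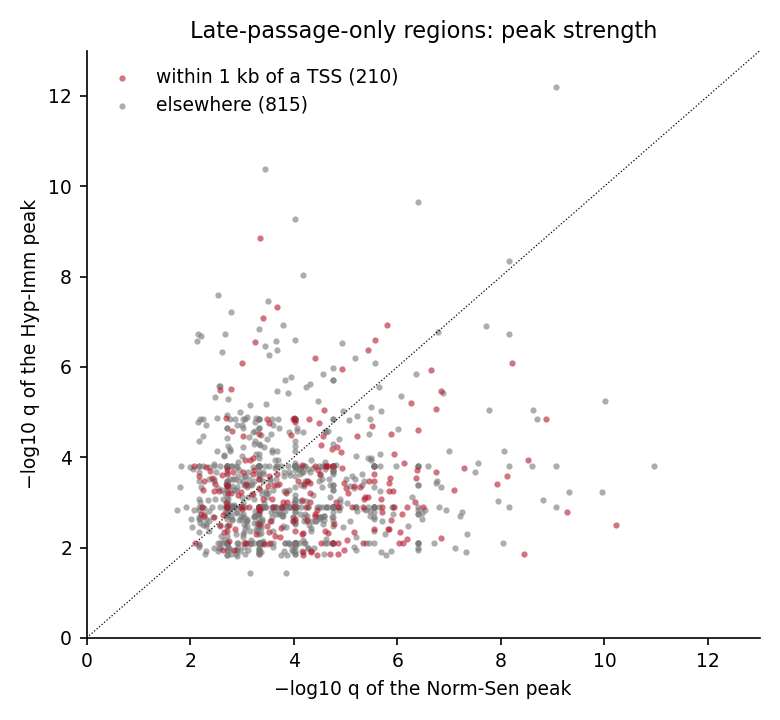
The −log10 q of the Norm-Sen peak (x axis) and the Hyp-Imm peak (y axis) of each of the 1025 members, in red for the 210 within 1 kb of a TSS and in grey for the 815 elsewhere, with a dotted line of equal values. Most points lie below 5 on both axes, 685 of them below the line, and the values of Hyp-Imm fall on levels because a summit held few reads.

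About 1 member in 5 lay at a promoter. With a protein-coding gene's TSS at most 1 kb away there were 210 members (20.5%, 18.1 to 23.1), while 82 others had their centre in an exon, 349 (34.0%) in an intron and 384 (37.5%) between genes. In the pool 11.9% of regions lay at a TSS. This share was 77.0% for regions in all 4 libraries, against 6.77% for those in Norm-Sen alone and 4.13% in Hyp-Imm alone. Among regions found in exactly 2 libraries the share was 20.5% for the members, against 22.3% (20.0 to 24.7) for Hyp-Imm with Norm-Pro, 23.4% (20.6 to 26.3) for 3% oxygen, 25.6% (24.0 to 27.2) for Norm-Sen with Hyp-Pro, 30.2% (28.9 to 31.6) for 20% oxygen and 31.2% (29.5 to 32.9) for passage 1. The members thus had the lowest value of the 6 sets, with an interval that overlaps those of both other sets that include Hyp-Imm. The median distance from a member to the nearest TSS was 28610 bp, against 44137 bp in the pool, and 259 members (25.3%) lay over 100 kb from any.

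**Figure D3:**
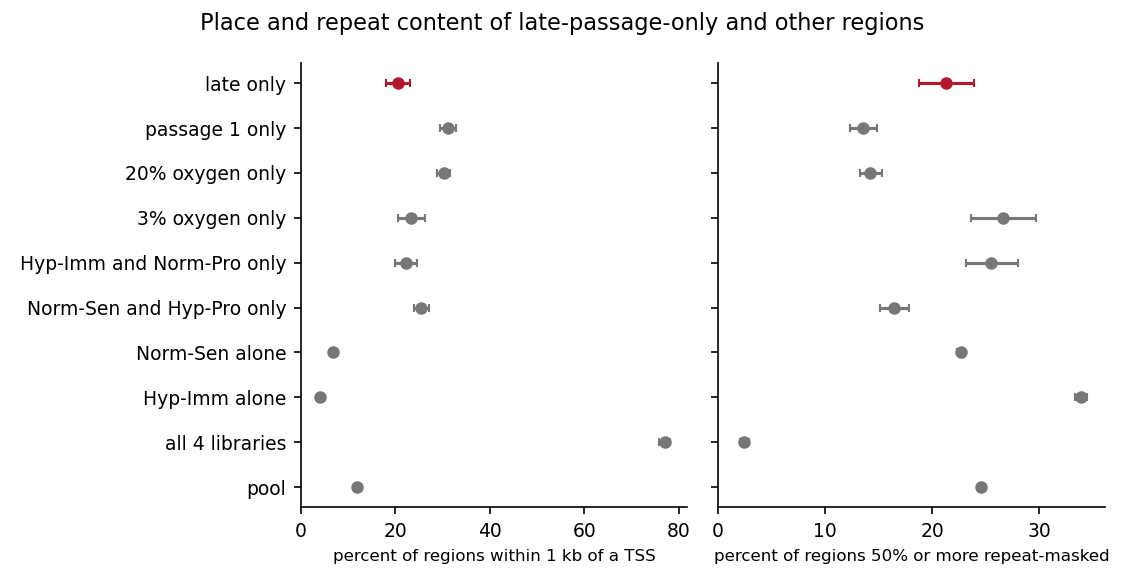
Percent of regions within 1 kb of a TSS (left) and percent of regions of which 50% or more is repeat-masked (right), with 95% exact intervals of counting error, for the members (late only, red), the 5 other sets found in exactly 2 libraries, regions of 1 late library alone, of all 4 libraries and of the whole pool. The members stand at 20.5% and 21.3%, against 11.9% and 24.6% in the pool.

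Many promoter members were a late-passage peak beside an early one. A passage 1 peak lay within 500 bp of 136 of the 210 members at a TSS (64.8%, 57.9 to 71.2) but of 119 of the 815 elsewhere (14.6%, 12.2 to 17.2). Over all members the share was 24.9%, and 180 members (17.6%) had one within 200 bp. At 64 of the 210 promoter members (30.5%) no passage 1 peak lay within 1000 bp. Promoter members were also stronger, with a median −log10 q of 4.19 in Norm-Sen and 3.22 in Hyp-Imm, against 3.63 and 2.89 for the members elsewhere, and their local background was higher, 2.89 against 2.12 reads in Norm-Sen and 0.780 against 0.530 in Hyp-Imm. The median GC content of the 200 bp at their centre was 67.5%, against 55.0% elsewhere.

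**Figure D4:**
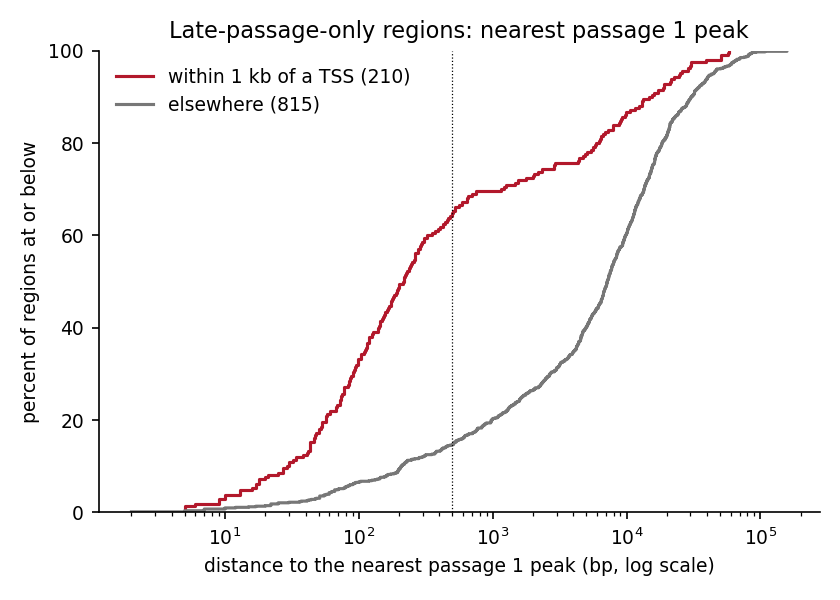
Cumulative percent of members (y axis) by the distance to the nearest passage 1 peak (x axis, log scale), in red for the 210 members within 1 kb of a TSS and in grey for the 815 elsewhere. The dotted line at 500 bp crosses the curves at 64.8% and 14.6%.

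Of the 10 strongest members at a promoter, 6 had no passage 1 peak within 1000 bp. The member at the TSS of Cstf2, a subunit of the factor that cleaves pre-mRNA before polyadenylation, had 16 reads at its summit in Norm-Sen and 10 in Hyp-Imm (−log10 q 5.80 and 6.92), and the nearest passage 1 peaks were 77555 bp away in Norm-Pro and 57596 bp in Hyp-Pro. The member at Rpusd3, a pseudouridine synthase of mitochondria, had 20 and 13 reads (5.57 and 6.60), with passage 1 peaks 15452 and 5413 bp away. At Psd4, an exchange factor for the GTPase Arf6, it had 17 and 10 reads (6.26 and 5.201), with passage 1 peaks at least 11529 bp away. These promoters stood clear of any early peak.

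Spata2l (23 and 12 reads), Slc45a3, a transporter (18 and 11 reads), and Ptpn18, a tyrosine phosphatase (23 and 9 reads), likewise had the nearest passage 1 peak at least 2889 bp from the member. The member at Ptpn18 had one of the higher Norm-Sen values at a promoter, a −log10 q of 8.87, against 4.84 in Hyp-Imm. At other promoters the early peak was next to it. The member 353 bp downstream of the TSS of Hdac2, a histone deacetylase, had 19 and 11 reads (6.85 and 5.46) and lay 117 bp from a Norm-Pro peak and 25 bp from a Hyp-Pro peak. That of Ap1m1, a subunit of a clathrin adaptor, lay 184 and 319 bp from such peaks, that of Rabac1, which binds prenylated Rab GTPases, 446 and 422 bp, and that of Gm266, a predicted gene, 5 bp from a Norm-Pro peak.

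Of the 12 strongest members 8 lay away from a promoter and 4 at one, and among the 257 strongest of all members 65 (25.3%, 20.1 to 31.1) lay at a TSS, against 20.5% of all members. Led by the lower of the 2 −log10 q values, the first was an intronic region 263058 bp from the TSS of Kcnh5, a potassium channel gene, with 18 reads in Norm-Sen over a background of 1.77 and 14 reads in Hyp-Imm over 0.460 (−log10 q 9.06 and 12.2). The second, in an intron and nearest to Atf7ip, which codes for a partner of the methyltransferase Setdb1, had 17 and 11 reads (8.15 and 8.35). Of both regions over 80% is repeat-masked, and both hold the long CA or TG runs printed above. The third, nearest to Sfi1, which codes for a centrin-binding protein, had 23 and 14 reads (7.70 and 6.90), and only 64.1% of its 49-base words occur once in the reference.

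The member upstream of Theg, a gene of spermatids, had 20 and 13 reads (6.78 in each library), no repeat-masked base and the CTCF motif shown above. A member nearest to Hira, the chaperone of histone H3.3, had 20 and 12 reads (8.17 and 6.74), but it is entirely repeat-masked and 34.8% of its words are unique. Those nearest to Nol4 (15 and 12 reads), Epb41l4a (19 and 11 reads) and Cdk2ap1, whose product binds the kinase Cdk2 (21 and 15 reads), complete the 12 strongest together with 4 of the promoters above. Where a 49-base word occurs more than once, the place of a read is uncertain; the sources used here do not say how such reads were treated.

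Regions repeat-masked over 50% or more of their length were somewhat less frequent among the members than in the pool. This did not hold for the median repeat-masked percent, 10.3 in the members and 9.67 in the pool. Nor did it hold for the 257 strongest members, of which 25.3% (20.1 to 31.1) were masked to that degree. Of 1024 members with sequence, 218 (21.3%, 18.8 to 23.9) were repeat-masked over 50% or more of their length, against 24.6% in the pool and 13.6% to 26.6% in the other sets of 2 libraries. In 848 (82.8%) every 49-base word was unique, against 84.8% in the pool, and in 9 (0.879%) fewer than 50% were. Runs of at least 10 CA or TG dinucleotides, searched after the strongest sequences had been seen, were present in 80 members (7.81%, 6.24 to 9.63), against 6.65% in the pool and 2.0996% (1.52 to 2.82) of the windows 1000 bp to either side of the members. It was 13.46% for regions of Hyp-Imm alone, 12.4% for Hyp-Imm with Norm-Pro and 11.5% for 3% oxygen, against 3.71% for Norm-Sen alone, 3.12% for 20% oxygen, 3.69% for Norm-Sen with Hyp-Pro and 5.23% for passage 1. The sets that include Hyp-Imm and not Norm-Sen thus had the highest shares, and the members, found in both libraries, lay between. Among members whose peaks both reached a −log10 q of 3 it was 50 of 379 (13.2%).

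The sequence at the centre of the members differed from their flanks in GC content and in several motifs. The median GC content of the central 200 bp was 56.5%, against 52.5% in the pool and 44.5% in windows 1000 bp to either side. Of 16 motifs searched on both strands in these windows, the CTCF motif was present in 73 of 1024 members (7.13%, 5.63 to 8.88), against 1.71% (1.19 to 2.37) of their flanks and 4.48% of the pool. The ETS motif CCGGAAG was in 3.81% (2.72 to 5.17), against 0.781% of flanks and 2.26% of the pool, and the GC box GGGCGGG in 119 members (11.6%, 9.72 to 13.7), against 2.15% and 7.38%. In the other sets of regions found in exactly 2 libraries the share was 6.76 to 11.3% for CTCF, 2.85 to 5.70% for ETS and 12.1 to 18.4% for the GC box, so that the members were within the range for CTCF and ETS and had the lowest value of the 6 sets for the GC box. Such motifs are rich in G and C, and the part of the GC content in these shares was not tested.

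The E-box CAGCTG, read by basic helix-loop-helix factors such as Twist1, was in 155 members (15.1%, 12.995 to 17.5), against 7.81% of flanks and 13.8% of the pool, and the NFkB motif, of factors of inflammation, in 4.49% (3.31 to 5.95), against 1.56% and 3.02%. In the other sets of regions found in exactly 2 libraries the share was 12.4 to 17.0% for the E-box and 3.27 to 3.91% for NFkB. The members were within that range for the E-box and above it for NFkB, where their interval overlapped those of all these sets. The motifs TTGCNNAA of CEBP factors and TGGAAAA of NFAT factors, rich in A and T, were less frequent at the centre, 3.81% against 7.96% of flanks and 2.73% against 6.10%. For p53 (6.74% against 6.59%), the HIF core TACGTG (2.34% against 2.39%), TEAD (CATTCCA, 3.61% against 2.83%) and RUNX (TGTGGTT, 3.61% against 4.30%) the intervals at centre and flanks overlapped. The same held for CCAATNAG of NFY (1.56% against 2.05%), SRF (0.684% against 1.07%) and TGACGTCA of CREB factors (0.684% against 0.195%).

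The AP-1 motif was about as frequent in the members as in the pool. It was present in 72 members (7.03%, 5.54 to 8.77), against 7.68% of the pool and 5.71% (4.75 to 6.81) of the flanks. Among regions found in exactly 2 libraries the share was 6.50% for Hyp-Imm with Norm-Pro, 9.19% for 3% oxygen, 10.4% for 20% oxygen, 13.1% for Norm-Sen with Hyp-Pro and 14.9% for passage 1. At 9 positions from 1000 bp upstream to 1000 bp downstream of the centre it was in 5.08 to 7.03% of windows, the highest value being at the centre. Members with the motif, such as the one nearest to Chd7, a chromatin remodeller (17 and 9 reads), had a −log10 q like that of the rest. The median was 3.69 against 3.75 in Norm-Sen and 2.90 against 2.91 in Hyp-Imm. Only 5 of the 72 (6.94%) lay at a TSS, against 205 of 952 (21.5%) without the motif. The member printed above for Cd44, a receptor of hyaluronan (13 and 7 reads), is not among the 72. Its match does not lie wholly within the central 200 bp.

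**Figure D5:**
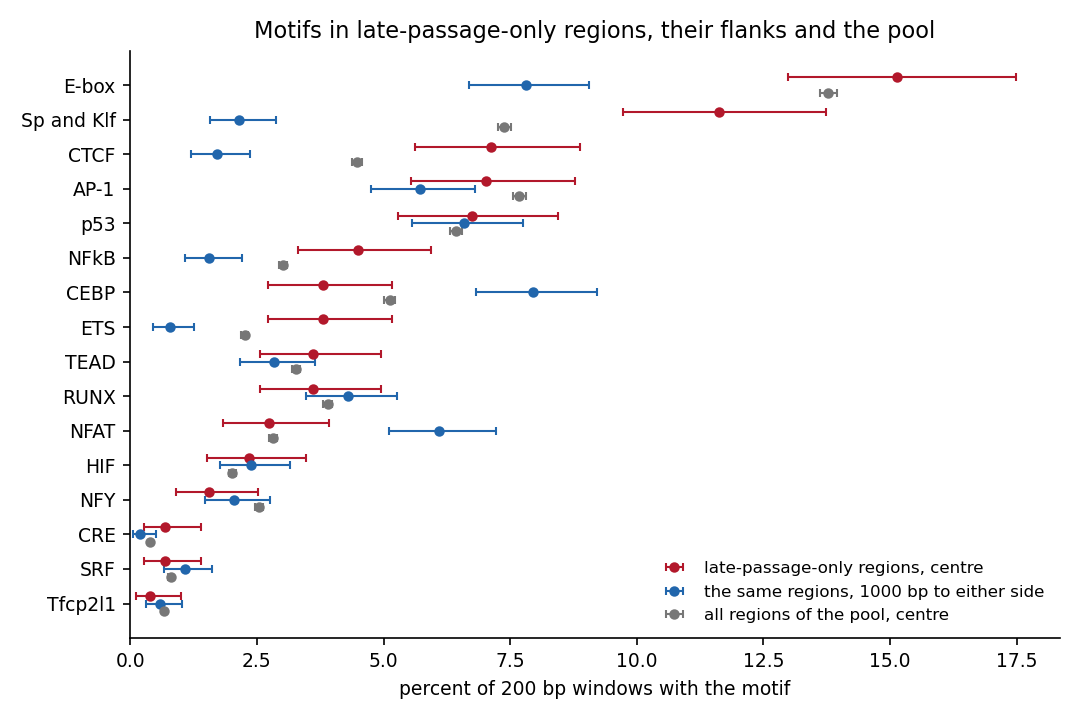
Percent of 200 bp windows that hold each of 16 motifs, with 95% exact intervals of counting error, at the centre of 1024 members (red), in the 2048 windows 1000 bp to either side of them (blue) and at the centre of the regions of the whole pool (grey). CTCF stands at 7.13% in the members, against 1.71% in the flanks, and AP-1 at 7.03% against 5.71%.

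Close matches to the motif of Tfcp2l1, the transcription factor under study, and its ChIP-seq peaks were found in few members. A match with at most 2 mismatches was present in 4 members (0.391%, 0.107 to 0.997), against 0.671% of the pool and 0.586% of the flanks, and 0 members had a match with fewer mismatches. The count depends on the mismatches allowed, and with at most 3 there were 72 members (7.03%) with a match. These 4 were intergenic regions upstream of Lbh, a cofactor of limb and heart development (11 and 6 reads), and of Tenm4, a teneurin of the cell surface (17 and 5 reads), an exonic region near 4930550C14Rik (14 and 6 reads) and a region 168 bp upstream of Lmbr1, whose intron holds the limb enhancer of Shh (18 and 7 reads). In each of them the Hyp-Imm peak had the lower −log10 q, of 2.89, 1.98, 2.67 and 2.40. By fold enrichment the Hyp-Imm peak was the higher one at Lbh (4.84 against 4.01). It was the lower one at Tenm4 (3.95 against 5.83), 4930550C14Rik (4.61 against 4.67) and Lmbr1 (4.35 against 4.85).

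A Tfcp2l1 ChIP-seq peak overlapped 3 members (0.293%, 0.0604 to 0.853), against 0.172% of the pool and 1.898% of the regions found in all 4 libraries. In the other sets of 2 libraries it was 0 to 0.407%. The 3 were a member nearest to Tcp10c, 100% repeat-masked and with 57.7% of unique words, with a ChIP-seq peak in both conditions, one nearest to Atg4a, a protease of autophagy, 74.3% repeat-masked, with a peak in immortalized MEFs, and one 256911 bp upstream of Atp10a, with a peak in both. None of the 3 held the Tfcp2l1 motif within 2 mismatches, the closest match having 5, 5 and 6. None of the 1025 members lay on a tRNA gene, against 68 regions of the pool (0.0399%). A count of 0 allows a share of up to 0.359% by the exact interval, which includes the share of the pool.

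The members fell into the domains of many genes. When each gene was given a domain that spans 5 kb before and 1 kb after its TSS and reaches out to the next such domain, at most 1 Mb away, 1562 of 21938 protein-coding genes (7.12%) had a member, 1414 of them 1, 135 of them 2 and 13 of them 3 or more. Genes with a member had larger domains, 288.9 kb in the median against 89.5 kb for all genes, and more pool regions, 23 against 7. The part of domain size in the count of genes was not tested. The 2947 passage 1 regions reached 3884 genes (17.7%) and the 852 regions of 3% oxygen 1347 (6.14%). The gene with the most members in its domain was Tbl1xr1, a subunit of the NCoR corepressor complex, with 5 of its 117 pool regions, followed by Fgf14, a binding partner of sodium channels, with 4 of 49, and Lrmda, with 4 of 61. The other 10 of the 13 had 3 each, among them Olfr1423, an olfactory receptor, Osbp, which carries sterols, and Gm17019.

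Of 11 gene lists, transcription factors of mesenchyme had the most genes with a member. A member lay in the domain of 10 of the 32 genes (31.2%), against 7.12% of all genes, but these domains span 696.5 kb in the median and hold many pool regions, of which the 12 members were 0.714% (0.370 to 1.24), against 0.601% in the whole pool. A pair each were near Tbx18, a T-box factor of mesenchyme, and Osr2, a zinc finger factor of limb and palate. Those of Tbx18 lay 1181 bp and 840 bp downstream of the TSS, the stronger one with 15 reads in Norm-Sen and 9 in Hyp-Imm. That of Osr2 nearest its promoter lay 2972 bp from the TSS, with 14 and 8 reads. Meox2, a homeobox factor, had 1 member 331209 bp away (12 and 8 reads). The member 111 bp downstream of the TSS of Twist1, a driver of mesenchymal identity, was weak, with 14 and 7 reads (3.04 and 2.096), and 18 bp from a Norm-Pro peak.

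For the hypoxia response, the genes that Hif factors control or that control Hif, 4 of 30 genes (13.3%) had 5 members, 0.971% (0.316 to 2.25) of their pool regions. A pair were in the domain of Hif1a, the oxygen-regulated subunit of the factor, one of them 184262 bp from its TSS with 15 reads in Norm-Sen and 13 in Hyp-Imm (−log10 q 4.17 and 8.03). The TSS nearest to that intronic member was that of Prkch, 132142 bp away. Others were 40591 bp from Adm, the vasodilator adrenomedullin (14 and 9 reads), and 40731 bp from Egln3, a prolyl hydroxylase that marks Hif for decay (15 and 7 reads), and 1 was near Egln1. None of these lay at a promoter.

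Of 40 secreted factors of senescent cells 5 (12.5%) had a member, 0.758% (0.246 to 1.76) of their pool regions. The strongest was in the domain of Areg, a ligand of the EGF receptor, 190101 bp from its TSS (15 and 9 reads, 5.65 and 5.56). The TSS nearest to this member was that of Btc, 73040 bp away. Next came one 595164 bp from Igfbp7, which binds insulin-like growth factors (14 and 7 reads), and one in the domain of Cxcl12, a chemokine (11 and 7 reads). The other 35 genes of the list had no member. Of the CDK inhibitors and p53 targets, the brakes of the cell cycle, only Gadd45a of 24 genes had one, in the domain at 126171 bp from its TSS (17 and 6 reads), and of 32 genes of the cell cycle and replication only Ccnd2, a cyclin, did, at 211135 bp (13 and 10 reads). The Gadd45a member lay 173 bp from a Hyp-Pro peak and the Ccnd2 member 7 bp from a Norm-Pro peak. Both lists were near the lower end, with 0.234% and 0.302% of their pool regions.

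Of 30 Polycomb genes, which code for repressors that modify histones, 4 had 5 members (1.03%, 0.334 to 2.38, of pool regions). Ezh2, the methyltransferase of the complex PRC2, had 2, one of them 52610 bp from its TSS (22 and 12 reads). The member at the TSS of Eed, another subunit of PRC2, had 17 reads in Norm-Sen and 5 in Hyp-Imm (6.11 and 2.096) and lay 186 bp from a Norm-Pro peak and 166 bp from a Hyp-Pro peak. That of Rybp, of the complex PRC1, was 238580 bp from the TSS (14 and 9 reads). Of the 27 pluripotency and stemness genes 4 had 6 members, 0.611% (0.225 to 1.33) of pool regions, close to the pool. These were Myc and Sox2 with 2 each, and Klf5 and Nanog. The nearest to a promoter was 1461 bp upstream of Sox2 and had 10 and 8 reads (2.61 and 3.28), while the member in the domain of Nanog was 5791 bp from its TSS (11 and 7 reads) and that of Klf5 14380 bp (17 and 7 reads).

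Of 32 growth factors and receptors 4 had 1 member each, 0.381% (0.104 to 0.972) of pool regions, and 2 of them were promoters of the TGF-beta pathway. The member 321 bp upstream of Tgfb2, a ligand of that pathway, had 18 reads in Norm-Sen and 11 in Hyp-Imm (3.98 and 4.84), consists largely of a CA run, as printed above, and was 30544 bp from a Norm-Pro peak and 42952 bp from a Hyp-Pro peak. That at the TSS of Tgfbr3, the coreceptor betaglycan, had 13 and 9 reads (3.01 and 3.67) and lay 13755 bp from a Norm-Pro peak but 230 bp from a Hyp-Pro peak. The others were 510205 bp from Pdgfd, a ligand of PDGF receptors (15 and 7 reads), and near Inhba. Among AP-1 and TEAD factors and YAP targets 3 of the 25 genes found by symbol, which leave out Ctgf and Cyr61 of the 27 listed, had 4 members, of which Fos had 2, one 1520 bp upstream of its TSS with 20 and 10 reads (4.51 and 3.60), and Tead4, a TEAD factor, had 1 (14 and 11 reads).

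Of 30 genes of the fibroblast matrix 4 had a member, 0.480% (0.131 to 1.22) of pool regions. These were Col3a1, a fibrillar collagen (12 and 6 reads at 96481 bp), Thbs2, a thrombospondin (13 and 6 reads), Eln, the elastin gene (14 and 8 reads), and Loxl1, a crosslinking enzyme of elastin. Of 32 genes of actin, adhesion and myofibroblasts only Myh9, non-muscle myosin (16 and 8 reads), and Itga1, a collagen receptor (10 and 6 reads), had one. Over the 11 lists the members were 0.234 to 1.03% of the pool regions, and each interval includes the 0.601% of the whole pool.

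The members were spread over the genome. Every autosome had between 28 and 73 of them, 0.514% (chromosome 9) to 0.726% (chromosome 10) of its pool regions, and the X chromosome had 21 (0.400%). The members rarely lay together: 4 had another within 1000 bp, 14 within 10 kb and 112 (10.9%) within 100 kb.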

How the data were processed

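ATAC-seq was done by the authors on MEFs of 4 conditions and Tfcp2l1 ChIP-seq on MEFs of 2, with 1 library each. According to the methods, ATAC-seq reads were aligned with Bowtie2 to GRCm38 (mm10), pairs over 2 kb apart were removed, read starts were moved to the Tn5 cutting site and peaks were called with MACS2 at an FDR under 0.05. The submitters' processing notes also name Bowtie and SAMtools. The ChIP-seq coordinates were taken to be of the same build, which the labels do not state. Of the deposited columns, fold enrichment is a ratio that the authors obtained from MACS2, namely (summit pileup + 1) over (local background + 1). Each peak also carries the −log10 p and the −log10 q that MACS2 gave the authors. The deposited score column was not used.

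The whole pileup and the background were solved from fold and −log10 p (tolerance 0.001). Peaks were merged into 170532 regions. GENCODE vM21 supplied TSSs, exons and domains, and RefSeq on GRCm38 the sequence and 403 tRNA genes. An exon or intron may belong to any annotated gene. A member is named by the protein-coding gene of the nearest TSS, and members are ranked by the lower of their −log10 q values. Under the gene lists a member is instead given with the list gene whose domain holds it, which may not be the nearest gene. Of the 16 motifs, CTCF was allowed 1 mismatch, Tfcp2l1 2 and the others 0; motifs of 10 or more letters are given by name. Python 3.11.15, numpy 2.4.6, scipy 1.17.1, pandas 2.3.3, numba 0.67.0 and matplotlib 3.10.9 were used, and the motif search, the merging and the recovery of reads were tested on simulated data.

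Members and gene lists were chosen with earlier results of these data known. Named are the 12 strongest members, the 10 strongest at a TSS, up to 3 genes of each list with the most members, members with a ChIP-seq peak or the Tfcp2l1 motif, the 6 genes with the most members (ties broken by fewer pool regions) and those at the edge of the rule; the promoter member of Twist1, Eed and Tgfbr3, other list genes and the sequences printed were picked after their values were seen. With 1 library per condition no test between conditions was made, and the 95% intervals are exact Clopper-Pearson intervals of shares that cover counting error only. The values of 1 gene of the AP-1 and TEAD list are not reported here. Alternatives covered thresholds, overlap, distance, motif windows, repeats and the conditions by the file names. Since the files hold peaks only, reads at passage 1 in a member without a peak were not analysed here.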

Additional observations from a re-analysis of the deposited data

How the results depend on the processing

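With the conditions of the file names no region is shared with the members, so that reading replaces the whole set: 1264 regions, 15.9% of those shared by its late libraries. With both late peaks at a −log10 q of at least 3 the members were 379 (7.12% of the shared regions), in the domains of 595 genes, with 26.4% at a TSS and 0% with a Tfcp2l1 motif. With 37770 peaks per library 11.7% of the shared regions were members and 27.1% of these lay at a TSS. With peaks that overlap by 50% of the shorter the share of shared regions was 11.6%. Without members within 500 bp of a passage 1 peak it was 10.2%, and only 9.61% of the 770 left lay at a TSS. Without regions 50% or more repeat-masked it was 11.3%, with 25.7% at a TSS, and, as chosen after seeing the data, without regions that hold a 49-base word found more than once 12.6%, with 23.9%. The share near a TSS was 26.1% within 5 kb and 24.98% with the TSSs of all annotated genes. The AP-1 share was 4.30% in the central 100 bp. The Tfcp2l1 share was 0% with at most 1 mismatch and 7.03% with at most 3. By the nearest TSS within 100 kb 735 genes had a member. Another 45 values moved by less than their interval or by less than 1.5 times. The share under a ChIP-seq peak rests on 3 regions and has a wide interval, within which it was 0.792% with late peaks at 3, 0.648% with equal peaks, 0.124% without repeat-masked regions, 0.118% without repeated words, 0.130% away from passage 1 peaks and 0.0791% by the file names. No paired analysis was possible because each condition had 1 library. The depth of Hyp-Imm, with 7 reads at the median summit of a member, limits which regions could be called at all, and a region without a passage 1 peak may have had reads there.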
